A study of Mus musculus with 15 samples.

Results

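The 3 vesicular glutamate transporter genes, Slc17a6, Slc17a7 and Slc17a8, were followed through RNA sequencing of mouse thalamus after repeated cocaine or saline. They were taken by symbol from the 25080 genes listed for each library, and all 3 were found in every library. In these libraries Slc17a6 was the most abundant member and showed no detectable difference between the groups, Slc17a7 had higher values in control cocaine and cKO saline than in control saline and cKO cocaine without passing the test in any contrast, and Slc17a8 was near 1 TPM or below. Slc17a8 entered the test only through control saline, where it was highest, and its single call, lower in control cocaine than in control saline, was lost under several alternatives and is given as a description.

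Vesicular glutamate transporters load glutamate into synaptic vesicles, driven by the proton gradient that the vesicular ATPase builds, and a neuron that carries one of them can release glutamate. Slc17a6 encodes VGLUT2, the main form in the thalamus, hypothalamus and brainstem. Slc17a7 encodes VGLUT1, the main form in the cerebral cortex, hippocampus and cerebellar granule cells. Slc17a8 encodes VGLUT3, which is found in scattered neurons that release another transmitter as well, such as serotonin neurons of the raphe and cholinergic interneurons of the striatum, and in inner hair cells of the cochlea.

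Mice 2 to 4 months old, backcrossed to C57Bl6J, received saline on 3 days and then cocaine at 20 mg/kg or saline on 5 days, by intraperitoneal injection. Maged1 cKO mice carry floxed Maged1, a gene of the MAGE family on the X chromosome, and Cre recombinase from the Vglut2-ires-Cre line, so that Cre follows the expression of Slc17a6 itself wherever in the brain that gene is active. The controls are floxed littermates in the study's breeding text and Maged1 Loxp in the genotype tags, with no Cre named, while the sample titles call them Maged1 WT and the extraction text writes Vglut2Cre before both genotypes, so the sources differ on whether the controls carried Cre. The whole thalamus was dissected and used unsorted, and total RNA was sequenced after removal of ribosomal RNA. Of the 15 samples of the series 14 were analysed, with 4 libraries each for control saline, control cocaine and cKO saline and 2 for cKO cocaine, and 1 sample labelled cKO cocaine was not analysed here. For 4 saline libraries (control saline replicates 3 and 4, cKO saline replicates 1 and 2) tag and title disagree on the genotype, and the groups here follow the titles.

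The members are separate genes with related coding sequences. In the GENCODE M21 annotation of GRCm38, Slc17a6 (ENSMUSG00000030500.6) lies on chromosome 7 from 51622006 to 51671119 on the plus strand and Slc17a7 (ENSMUSG00000070570.5) on chromosome 7 from 45163949 to 45176142 on the plus strand. Slc17a8 (ENSMUSG00000019935.16) lies on chromosome 10 from 89574020 to 89621253 on the minus strand. The first annotated transcript of each has 12 exons, with coding lengths of 1746 bases in Slc17a6, 1680 in Slc17a7 and 1803 in Slc17a8. In an alignment of the 3 coding sequences, 71.9% of the 1653 bases aligned between Slc17a6 and Slc17a7 were identical, 70.7% of 1740 between Slc17a6 and Slc17a8, and 69.0% of 1650 between Slc17a7 and Slc17a8. The stretch of 60 bases within 1 exon at which the members differ least is printed because it is where reads of one member would be most easily taken for another. It lies in the coding part of exon 2 in each gene, the lines run 5′ to 3′ on the gene's own strand, and capitals mark the 14 positions at which the 3 members are not all the same.
Slc17a6 (chr7:51625418-51625477): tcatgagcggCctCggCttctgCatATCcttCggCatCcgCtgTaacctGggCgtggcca
Slc17a7 (chr7:45168852-45168911): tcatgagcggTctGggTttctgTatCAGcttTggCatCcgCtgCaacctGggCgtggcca
Slc17a8 (chr10:89606633-89606692): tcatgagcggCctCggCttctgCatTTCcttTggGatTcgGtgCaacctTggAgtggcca

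Over all annotated transcripts, no word of 31 bases was shared between any pair of members on either strand. Words shared with other genes made up 0.04% of those of Slc17a6, 0.02% of those of Slc17a7 and 3.17% of those of Slc17a8. A small part of Slc17a8 is thus also found in transcripts of other genes, where reads can be split between them.

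Values are TPM, transcript abundance per transcript length and library total, so that levels of different genes can be set side by side. TPM keeps no record of sequencing depth, and the counting error behind each value is unknown from these files. To make libraries comparable, every library was scaled by its own factor from a trimmed mean of M-values (TMM), and TPM refers to the scaled values unless they are called deposited. The factors ran from 0.807 to 0.9385 in the cocaine libraries and from 1.0678 to 1.2159 in the saline libraries. Differences are log2 fold changes of scaled TPM + 0.5, tested with limma over the 13471 genes that reached 1 TPM in 3 or more libraries. A call needed both a p adjusted by Benjamini-Hochberg of under 0.05 and a log2 fold change of 0.5 or more in size.

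Maged1, the inactivated gene, followed the titles after saline and went against them after cocaine. It was at 153, 167, 150 and 151 TPM in control saline and at 77.4, 76.6, 68.2 and 64.6 TPM in cKO saline. The 4 libraries labelled control cocaine had 58.5, 87.7, 77.3 and 70.7 TPM and the 2 labelled cKO cocaine had 154 and 174 TPM. The cocaine libraries are named by these labels, on which every direction that involves the genotype of a cocaine library rests.

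Slc17a6 had the highest mean of the members, 84.6 TPM over the 14 libraries, a level above that of 96.8% of the tested genes. Slc17a7 followed at a mean of 51.1 TPM, above 93.7% of the tested genes. Slc17a8 had a mean of 0.721 TPM, above 0.5% of them. The order Slc17a6, Slc17a7, Slc17a8 held in 13 of the 14 libraries, and in 1, cKO saline replicate 4, Slc17a7 at 73.4 TPM stood above Slc17a6 at 72.2 TPM. Slc17a8 was the lowest member in every library, with at least 25.9 times as much Slc17a7 and at least 61.1 times as much Slc17a6 beside it.

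**Figure D1:**
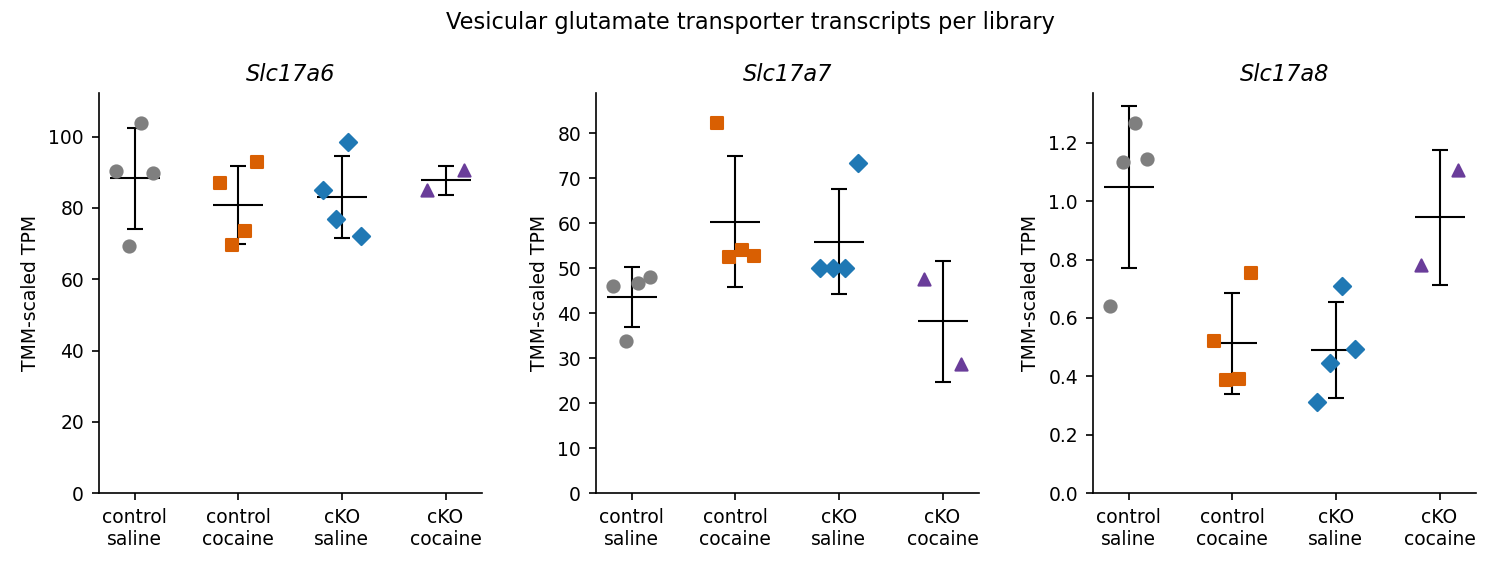
Scaled TPM of Slc17a6, Slc17a7 and Slc17a8 (y axis, from 0) in each library, by labelled group (x axis), with points in the order of the replicates and black lines for the mean and SD. Slc17a6 lies between 69.3 and 104 TPM with all groups overlapping, the 8 Slc17a7 values of control cocaine and cKO saline lie at 49.9 TPM or above and the other 6 at 48.0 TPM or below, and Slc17a8 lies at 1.27 TPM or below throughout.

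Slc17a6, the gene whose expression drives Cre in the cKO line, was at 90.4, 69.3, 104 and 89.7 TPM in control saline and at 87.1, 69.6, 73.5 and 92.8 TPM in control cocaine. It was at 84.9, 76.8, 98.6 and 72.2 TPM in cKO saline and at 84.9 and 90.6 TPM in cKO cocaine. Every group overlapped every other. The group means ran from 88.3 ± 14.2 TPM (SD, n = 4) in control saline through 87.8 TPM (n = 2) in cKO cocaine and 83.1 ± 11.6 TPM (n = 4) in cKO saline to 80.7 ± 11.0 TPM (n = 4) in control cocaine, and no neighbours in this order differed by more than their larger SD. The log2 fold change from saline to cocaine was -0.12 in control (95% interval -0.40 to 0.15, adjusted p = 0.515, limma) and 0.09 in cKO (-0.25 to 0.43, adjusted p = 0.739). From control to cKO it was -0.08 after saline (-0.36 to 0.20, adjusted p = 0.808) and 0.13 after cocaine (-0.21 to 0.47, adjusted p = 0.80). The difference between the genotypes in the response to cocaine, the interaction, was 0.21 (-0.23 to 0.65, adjusted p = 0.633). These intervals leave room for differences of either sign, and the data do not show that the level was equal. With the deposited TPM, which after cocaine were lower for most genes (median log2 shift over all tested genes -0.34 in control and -0.35 in cKO), Slc17a6 was at 78.2 to 116 TPM in control saline and 59.5 to 81.0 TPM in control cocaine, a log2 fold change of -0.49 (adjusted p = 0.00787, limma) that stayed under the minimum for a call.

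Slc17a7 was at 46.1, 33.8, 46.7 and 48.0 TPM in control saline and at 82.2, 52.4, 54.1 and 52.6 TPM in control cocaine. It was at 49.9, 49.9, 50.1 and 73.4 TPM in cKO saline and at 47.6 and 28.7 TPM in cKO cocaine. In each of the 4 contrasts between these groups the libraries of one group all lay above those of the other. Control cocaine lay above control saline, as groups not overlapping in either direction did for 25.2% of the tested genes. cKO cocaine lay below cKO saline (43.8% of genes did not overlap), cKO saline above control saline (12.6%) and cKO cocaine below control cocaine (17.5%).

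None of these differences in Slc17a7 passed the threshold after adjustment. The log2 fold change from saline to cocaine was 0.45 in control (standard error 0.19, adjusted p = 0.111, limma) and -0.57 in cKO (standard error 0.24, adjusted p = 0.111). From control to cKO it was 0.35 after saline (standard error 0.19, adjusted p = 0.398) and -0.67 after cocaine (standard error 0.24, adjusted p = 0.316). The interaction was -1.02 (standard error 0.31, 95% interval -1.68 to -0.35, adjusted p = 0.103). The values that involve cKO cocaine rest on 2 libraries far apart. Without cKO cocaine replicate 1, Slc17a7 fell by 0.93 from saline to cocaine in cKO (adjusted p = 0.0429, limma, a call), differed by -1.03 between the genotypes after cocaine and had an interaction of -1.38. Without replicate 2 these values were -0.21, -0.31 and -0.66, none of them called. The means ran from 60.3 ± 14.6 TPM (SD, n = 4) in control cocaine and 55.9 ± 11.7 TPM (n = 4) in cKO saline to 43.6 ± 6.61 TPM (n = 4) in control saline and 38.2 TPM (n = 2) in cKO cocaine. In that order the step from cKO saline to control saline exceeded the SD of both groups and the steps on either side of it did not.

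The same order placed all 8 Slc17a7 values of control cocaine and cKO saline above all 6 of control saline and cKO cocaine. This pairing of groups was looked at after the values were known, and 0.787% of the tested genes were separated by it in one direction or the other, Maged1 among them in the opposite direction. The gap was narrow, from 48.0 to 49.9 TPM. The separation was also present after median-of-ratios scaling and quantile normalization and was absent in the deposited TPM, where control cocaine overlapped control saline and cKO cocaine overlapped control cocaine. Grouped by the genotype tag in place of the title, the saline groups hold 33.8, 46.1, 49.9 and 49.9 TPM under control and 46.7, 48.0, 50.1 and 73.4 TPM under cKO, and overlap.

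**Figure D2:**
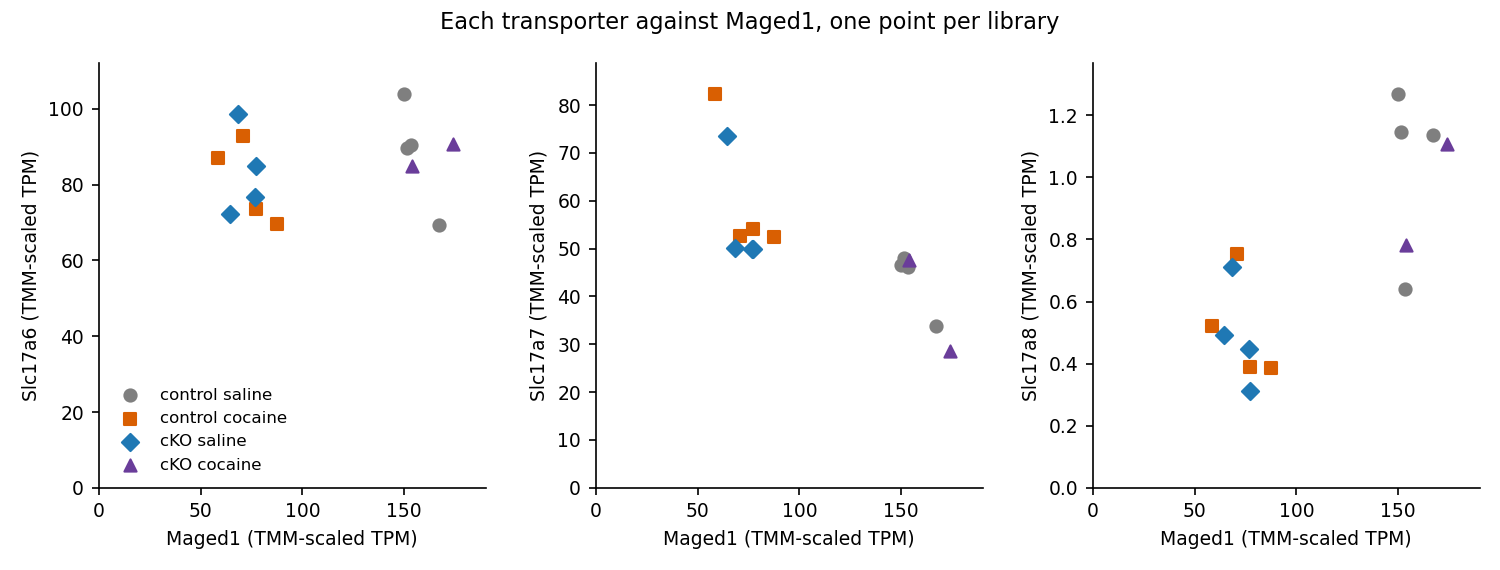
Scaled TPM of Slc17a6, Slc17a7 and Slc17a8 (y axes, from 0) against that of Maged1 (x axis, from 0), with 1 point per library and colours and shapes for the labelled groups. The libraries form 2 clusters in Maged1, at 87.7 TPM or below and at 150 TPM or above, and the Slc17a7 values of the clusters do not overlap, those of Slc17a8 overlap between 0.641 and 0.754 TPM, and those of Slc17a6 overlap widely.

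Single libraries stood far from their groups for Slc17a7, and other marker genes were high in some of them. In cKO saline replicate 4 (73.4 TPM of Slc17a7) the genes listed as markers of cortical and hippocampal glutamatergic neurons summed to 46.2 TPM, against 24.2 to 30.6 TPM in every other library, with Tbr1, a transcription factor of cortical projection neurons, at 1.99 TPM (0.184 to 1.68 TPM elsewhere) and Neurod6 at 1.32 TPM (0.0381 to 0.303 TPM elsewhere). In control cocaine replicate 1 (82.2 TPM of Slc17a7) the same cortical list summed to 26.7 TPM. Much of that list is Cux2, with group means of 17.5 to 21.7 TPM, so a sum of this size says little of its other genes. The markers of the habenula, which borders the thalamus, summed there to 223 TPM against 13.4 to 104 TPM elsewhere. Tac2, a neuropeptide gene of the medial habenula, was at 76.6 TPM. The GABAergic markers in this library summed to 38.0 TPM (92.3 to 330 TPM elsewhere) and the hypothalamic markers to 3.04 TPM (5.59 to 457 TPM elsewhere). The thalamic glutamatergic markers summed to 734 TPM (423 to 824 TPM elsewhere). The part of these lists in the Slc17a7 values was not tested. Without control cocaine replicate 1 the log2 fold change from control saline to control cocaine was 0.29 (adjusted p = 0.251), without control saline replicate 2 (33.8 TPM) it was 0.33 (adjusted p = 0.268), and without cKO saline replicate 4 that from control saline to cKO saline was 0.21 (adjusted p = 0.642). Since the tissue was bulk, fewer cells of a type and less RNA per cell cannot be told apart in any of these values.

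Slc17a8 was at 0.641, 1.135, 1.27 and 1.145 TPM in control saline and at 0.520, 0.387, 0.390 and 0.754 TPM in control cocaine. It was at 0.312, 0.446, 0.710 and 0.493 TPM in cKO saline and at 0.782 and 1.11 TPM in cKO cocaine. It entered the test only because 3 control saline libraries reached 1 deposited TPM (1.28, 1.417 and 1.253), which means that it passed the filter through the group where it was highest and that its differences from control saline are a description and support nothing. Control saline overlapped both control cocaine and cKO saline through its replicate 1, while both cKO cocaine libraries lay above all 4 of cKO saline and all 4 of control cocaine, as groups did not overlap for 43.8% and 17.5% of genes. After quantile normalization cKO cocaine overlapped both groups. The means ran from 1.05 ± 0.277 TPM (SD, n = 4) in control saline and 0.945 TPM (n = 2) in cKO cocaine to 0.513 ± 0.172 TPM (n = 4) in control cocaine and 0.490 ± 0.165 TPM (n = 4) in cKO saline, and only the step from cKO cocaine to control cocaine exceeded the SD of both groups.

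For cocaine in control, the contrast with the group through which Slc17a8 passed the filter, its log2 fold change was -0.61 (standard error 0.18, 95% interval -0.997 to -0.215, adjusted p = 0.0282, limma), past both thresholds for a call. Of all tested genes 1.66% were called lower there and 1.43% higher, and no share of the members is read against these because of that filter. Without the filter the adjusted p was 0.0304 by limma. The call was lost with a pseudocount of 1, with quantile normalization, with the 2 groups fitted alone (log2 fold change -0.61, adjusted p = 0.051), by the genotype tag (-0.13), in the 10 libraries whose labels agree (-0.45), and without control saline replicate 2, 3 or 4 or control cocaine replicate 2 or 3, when the log2 fold change lay between -0.573 and -0.535. In the remaining contrasts Slc17a8 was not called. The log2 fold change was 0.55 from saline to cocaine in cKO (standard error 0.22, adjusted p = 0.0983), -0.64 from control to cKO after saline (standard error 0.18, adjusted p = 0.121) and 0.52 from control to cKO after cocaine (standard error 0.22, adjusted p = 0.396). The interaction was 1.16 (standard error 0.29, 95% interval 0.54 to 1.78, adjusted p = 0.067). Since 0.5 TPM was added to values of about the same size, these log2 values understate the ratios of the TPM.

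**Figure D3:**
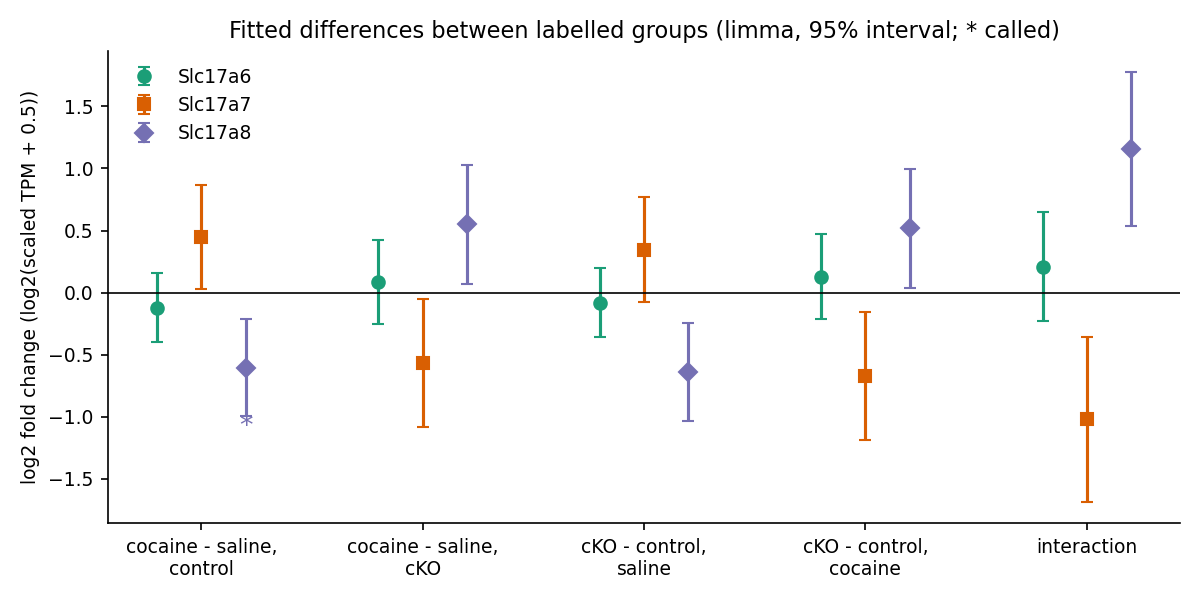
Log2 fold changes of the 3 members on the scale of log2(scaled TPM + 0.5) (y axis) in the 4 contrasts and the interaction (x axis), as points with 95% intervals from limma and an asterisk for the single call, of Slc17a8, which passed the filter through control saline alone. Slc17a6 stays near 0, while the signs of Slc17a7 and Slc17a8 are opposite in every contrast, with 0.45 and -0.61 for cocaine in control and -0.57 and 0.55 for cocaine in cKO.

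No member was called in the contrasts other than cocaine against saline in control, by limma. Of all genes 1.97% were called higher and 1.17% lower for cocaine in cKO. The called shares were 0.052% between genotypes after saline, 0.0371% after cocaine and 0.802% for the interaction. At the looser unadjusted p under 0.05, Slc17a7 and Slc17a8 passed for cocaine in cKO, between genotypes after cocaine and for the interaction. Slc17a8 alone passed between genotypes after saline. The called shares cannot be set beside these results, since the thresholds differ, and the share of all genes at that looser threshold is not given. After saline and in the interaction, Slc17a8 was compared with control saline, through which it passed the filter, so these 2 results support nothing. The contrasts share groups, so the opposite signs of one member in neighbouring contrasts are not separate observations. With genotype not used, which avoids the labels that Maged1 contradicts, the 6 cocaine libraries differed from the 8 saline libraries by a log2 value of -0.04 for Slc17a6 (adjusted p = 0.79), 0.05 for Slc17a7 (adjusted p = 0.861) and -0.11 for Slc17a8 (adjusted p = 0.708). None of the 3 was called in this comparison or had an unadjusted p under 0.05, and 2.08% of all genes were called.

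The balance between the members was also compared within each library, as the log2 ratio of 2 TPM values, which does not depend on the scaling between libraries. Slc17a7 stood to Slc17a6 as 0.51, 0.487, 0.45 and 0.535 to 1 in control saline and as 0.944, 0.753, 0.736 and 0.567 to 1 in control cocaine, and these groups did not overlap. The ratios were 0.588, 0.65, 0.509 and 1.02 in cKO saline, and the cKO cocaine libraries had 0.561 and 0.316. On the log2 scale control cocaine exceeded control saline by 0.58, with means of -0.44 ± 0.30 and -1.02 ± 0.11 (SD, n = 4 each, exact two-sided permutation test, p = 0.0286, which no split of 4 and 4 can undercut). The ratio was higher in cKO saline than in control saline by 0.43 (exact permutation test, p = 0.0857), with overlap. It was lower in cKO cocaine than in cKO saline by 0.66 (exact permutation test, p = 0.267) and than in control cocaine by 0.81 (exact permutation test, p = 0.133, which no split of 2 and 4 can undercut). Adjusted over the 8 ratio tests by Benjamini-Hochberg, the smallest exact permutation p was 0.152.

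The ratio of Slc17a8 to Slc17a6 ranged from 0.00709 to 0.0164 in control saline and from 0.00531 to 0.00813 in control cocaine. In cKO saline it ranged from 0.00368 to 0.0072, and the cKO cocaine libraries had 0.00921 and 0.0122. Its log2 value was lower by 0.91 in control cocaine than in control saline (exact permutation test, p = 0.0571) and by 1.03 in cKO saline than in control saline (p = 0.0571, exact permutation test), with overlap through control saline replicate 1 in both. Slc17a8 passed the filter through control saline, so both of these differences are a description and support nothing. The log2 ratio of Slc17a8 to Slc17a6 was higher in cKO cocaine than in cKO saline by 0.90 and than in control cocaine by 0.79 (exact permutation test, p = 0.133 in both, the smallest possible). As a share of the summed TPM of the 3 members, Slc17a6 made up 66.4% ± 1.57 in control saline (SD, n = 4), 57.3% ± 4.98 in control cocaine (n = 4), and 59.6% ± 7.2 in cKO saline (n = 4), while the cKO cocaine libraries had 63.7% and 75.3%. The sum itself lay between 104 and 152 TPM in control saline and between 122 and 170 TPM in control cocaine. In cKO saline it lay between 127 and 149 TPM, and the cKO cocaine libraries had 120 and 133 TPM, within the range of control saline.

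**Figure D4:**
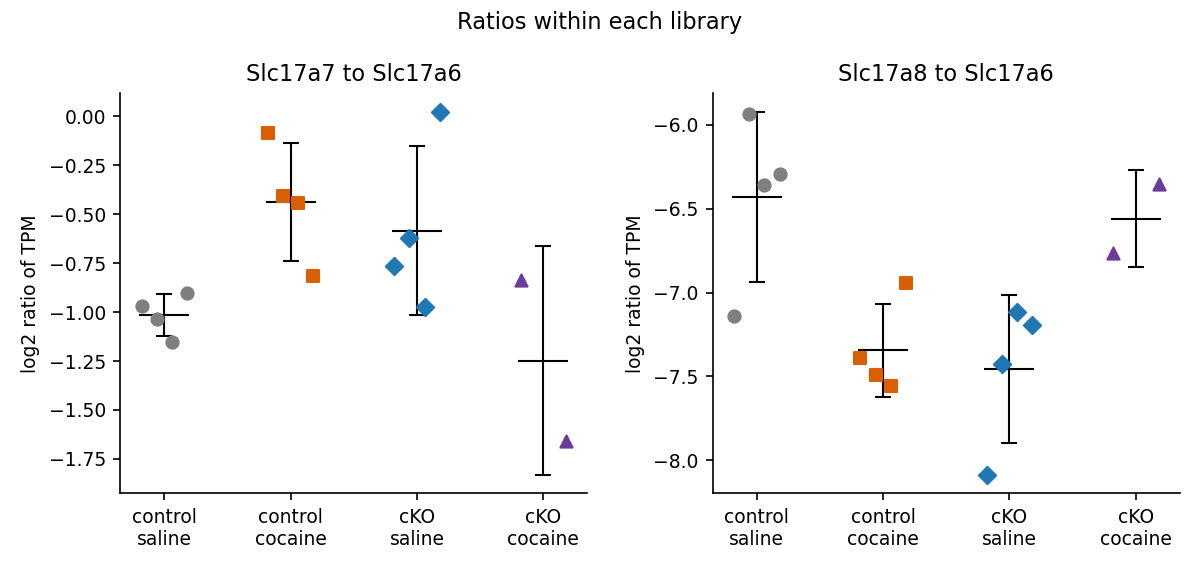
Log2 ratio of Slc17a7 to Slc17a6 and of Slc17a8 to Slc17a6 (y axes, which do not start at 0) in each library by labelled group (x axis), with black lines for the mean and SD. The Slc17a7 ratio of control cocaine lies above that of control saline without overlap, and only in cKO saline replicate 4 is it above 0.

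The rest of the SLC17 family, which carries phosphate, sialic acid and nucleotides, was nearly silent in this tissue. Of 6 other members only Slc17a5, the lysosomal sialic acid transporter sialin, was tested, at 4.89 ± 0.119 TPM in control saline, 4.24 ± 0.204 TPM in control cocaine and 5.01 ± 0.299 TPM in cKO saline (SD, n = 4 each), with 4.41 and 4.51 TPM in the cKO cocaine libraries. Its log2 fold change from control saline to control cocaine was -0.185 (adjusted p = 0.0169, limma), under the minimum for a call. Slc17a1, Slc17a2, Slc17a3 and Slc17a4 were listed at 0 in every library, and Slc17a9, the vesicular nucleotide transporter, reached at most 0.147 TPM.

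No gene of the lists of related transporters and glutamate handling was called. Of the 35 tested genes of the 5 lists (other SLC17 members, other vesicular transmitter transporters, plasma membrane glutamate transporters, glutamate synthesis with the glutamine cycle, and the vesicular proton pump), limma called 0 in every contrast. Over all tested genes 1.43% were called higher and 1.66% lower for cocaine in control, and 1.97% and 1.17% in cKO. A count of 0 in 35 genes is not read as a difference from these low shares. With no fold change minimum, 9 of the 35 passed the adjusted threshold for cocaine in control and 11 for cocaine in cKO. Of all 13471 tested genes, 1916 passed as higher for cocaine in control and 1378 in cKO. The numbers that passed as lower are not given, so no full share of all genes is set beside the 9 and 11. Of the 35, 0 passed between genotypes after either treatment and 2 for the interaction. At an unadjusted p under 0.05 the counts were 13 for cocaine in control and 18 in cKO. They were 5 between genotypes after saline, 8 after cocaine and 12 for the interaction, given as a description. The share of all tested genes at that looser threshold is not given, so these counts are not read as a result about the lists. Among plasma membrane transporters, the glial Slc1a3 (GLAST) was at 55.4 ± 3.64 TPM in control saline and 46.3 ± 2.53 TPM in control cocaine (SD, n = 4 each), with a log2 fold change of -0.26 (adjusted p = 0.00442). Slc1a2 (GLT-1), the most abundant of them, was at 189 ± 6.98 TPM and 194 ± 19.2 TPM in these groups.

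The vesicular proton pump list held 16 tested genes. They belong to the pump that powers the loading of glutamate, except Clcn3, which is not part of it. The 16 had median log2 fold changes of 0.00 for cocaine in control and -0.10 in cKO, beside 0.00 and 0.01 over all tested genes. Of the 16, 9 passed the adjusted threshold for cocaine in cKO, Clcn3 among them, and 4 for cocaine in control, all under the fold minimum. The full share of all tested genes at that threshold is not given, so these counts are not read as a result about the pump. In cKO, Atp6v1g2 (0.30, adjusted p = 0.0184, limma) and Atp6v1f (0.17, adjusted p = 0.0319) were higher and the others that passed were lower. Among these, Atp6ap2 had -0.47 (adjusted p = 0.00757) and Atp6v1h -0.36 (adjusted p = 0.001). Clcn3, a vesicular chloride and proton exchanger, had -0.26 (adjusted p = 0.00779). Among transporters of other transmitters, Slc32a1, which loads GABA and glycine, was at 18.2 ± 6.0 TPM in control saline and 18.3 ± 12.3 TPM in control cocaine. Slc18a3, which loads acetylcholine, was at 1.85 ± 0.537 TPM in control saline and 0.315 ± 0.135 TPM in cKO saline (SD, n = 4 each), with a log2 fold change of -1.52 (adjusted p = 0.141).

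**Figure D5:**
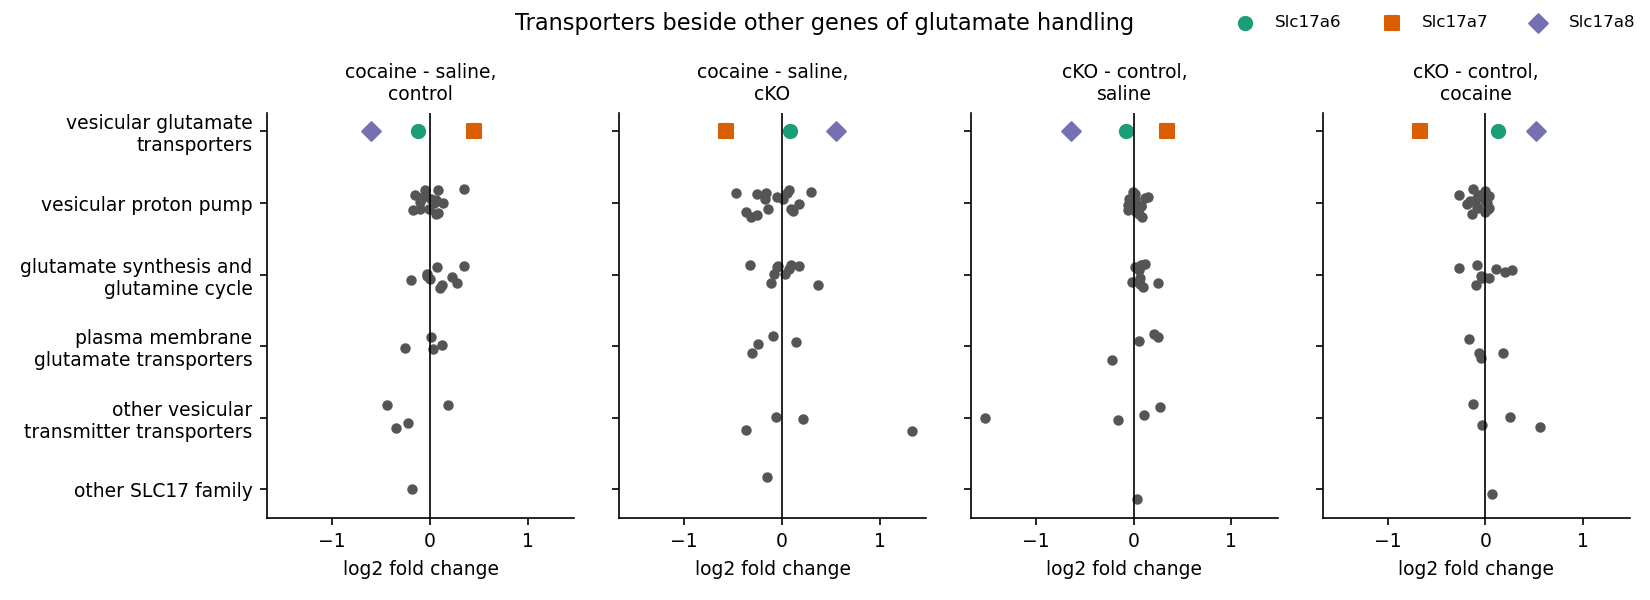
Log2 fold changes (x axes) of the 3 members and of each tested gene of the 5 lists of related transporters and glutamate handling (rows) in the 4 contrasts (panels), with 1 point per gene. The members lie at -0.61, -0.12 and 0.45 for cocaine in control, where no gene of the lists was called, and the outlying gene among other vesicular transporters is Slc18a3 at -1.52 for cKO against control after saline.

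The dissected tissue carried the markers of thalamus. All 12 listed markers of thalamic glutamatergic neurons were tested, among them Tcf7l2, a transcription factor of the thalamus and habenula, at 83.9 ± 7.92 TPM in control saline and 104 ± 17.9 TPM in control cocaine (SD, n = 4 each). Summed over the list, control saline was at 423 to 566 TPM and control cocaine at 601 to 824 TPM, while cKO saline was at 520 to 666 TPM and the cKO cocaine libraries at 539 and 669 TPM. For cocaine in control, 4 of the 12 were called higher (Tnnt1, Prkcd, Synpo2 and Lef1), with a median log2 fold change of 0.33 over the list, and Prkcd, a kinase of sensory relay neurons, had 0.74 (standard error 0.17, adjusted p = 0.00687). For cocaine in cKO 1 was called higher, Gbx2. There 8 of the 12 were positive and 4 negative, among them Rora at -0.48 (adjusted p = 0.0373, limma), under the fold minimum. Of all tested genes 1.43% were called higher for cocaine in control and 1.97% in cKO. The log2 fold change of Slc17a6, a marker of the same neurons, was -0.12 for cocaine in control and 0.09 in cKO.

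Markers of neighbouring regions differed between the groups as well, and their part in the values of Slc17a7 and Slc17a8 was not tested. The summed hypothalamic list ranged from 130 to 457 TPM in control saline and from 3.04 to 128 TPM in control cocaine. It ranged from 8.68 to 143 TPM in cKO saline, with 30.4 and 69.9 TPM for the cKO cocaine libraries. Of its 7 tested genes 3 were called lower for cocaine in control (Oxt, Avp and Otp) and 1, Oxt, for cKO after saline. Of all tested genes 1.66% were called lower for cocaine in control, and 0.052% were called in either direction for cKO after saline. The serotonin and cholinergic list had sums of 4.97 to 7.62 TPM in control saline and 0.565 to 11.9 TPM in control cocaine. Its sums were 0.519 to 1.83 TPM for cKO saline, with 2.47 and 7.27 TPM for the cKO cocaine libraries. Its highest sum was in control cocaine replicate 1, which also had the highest habenula sum, 223 TPM. Its lowest sums, in cKO saline replicate 1 and control cocaine replicate 4, were in the libraries with the lowest habenula sums, 13.9 and 13.4 TPM. Which cells carried these genes was not tested, and they are not read as markers of cells with VGLUT3. Of the 6 genes of the serotonin and cholinergic list 3 were tested, all of the cholinergic kind. Their medians were -0.44 for cocaine in control and -1.31 for cKO after saline, with 0 calls by limma. After saline 3 of 3 had an unadjusted p under 0.05, and 0 of 3 for cocaine in control. The serotonin genes Tph2, Slc6a4 and Fev stayed at or below 0.35 TPM in every library. The 10 genes of the habenula, whose medial part is known to use VGLUT1 and VGLUT2, had a median of -1.24 for cKO after saline, all negative, with 0 called and 6 at an unadjusted p under 0.05. Their median was 0.79 for cocaine in cKO, all positive, and -0.39 for cocaine in control, 9 negative and 1 positive. Between genotypes after cocaine it was -0.05, with 6 negative and 4 positive. The share of all tested genes at an unadjusted p under 0.05 is not given, so the counts at that threshold are not read as a result.

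The remaining lists held few calls. Of 4 tested cortical and hippocampal genes, 1, Slc30a3, a vesicular zinc transporter, was called lower for cocaine in control, beside 1.66% of all tested genes. It went from 3.74 ± 0.771 to 2.18 ± 0.353 TPM (SD, n = 4 each), in the contrast in which Slc17a7 had a log2 fold change of 0.45. Cux2 of the same list went the other way, from 17.5 ± 1.03 to 21.7 ± 1.94 TPM. Its log2 fold change of 0.30 (adjusted p = 0.016, limma) was under the fold minimum. Of 8 GABAergic genes and 9 glial and endothelial genes none was called for cocaine in control, with 0 and 2 at an unadjusted p under 0.05, for which the share of all tested genes is not given. These 2 were glial, the myelin gene Mbp (log2 fold change 0.45, adjusted p = 0.0257, limma) and the astrocyte gene Aldh1l1 (0.21, adjusted p = 0.00693, limma), both past the adjusted threshold and under the fold minimum. The glial and endothelial list summed to 1190 to 1390 TPM in control saline and 1290 to 1940 TPM in control cocaine. For cKO saline the sums were 1440 to 1980 TPM, and for cKO cocaine 1520 and 1540 TPM, so that control saline was the lowest group by its median, and their part in the values of the members was not tested. The choroid plexus list summed to 1450 TPM in 1 control saline library and to 50.9 TPM or less in cKO saline, control cocaine and cKO cocaine.

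The genes whose levels followed each member most closely over the 14 libraries were found by Pearson correlation of log2(scaled TPM + 0.5), as a description in which the libraries share groups, scaling and dissection. For Slc17a6 the first was Manba, a lysosomal mannosidase, with r = 0.822 and a mean of 3.70 TPM, followed by Sv2b, a synaptic vesicle glycoprotein, with r = 0.785 and a mean of 30.5 TPM, and then Spryd4, Wdr89 and Klhdc1. After the group means were removed, these 5 had r between 0.784 and 0.905. For Slc17a7 the first was BC031361, with r = 0.883 at a mean of 0.983 TPM, followed by Arl1, a small GTPase of the Golgi, Tafa4, Zfand5 and Scp2, a sterol carrier protein. Within groups these 5 had r between 0.64 and 0.909. For Slc17a8 they were Fbln1, an extracellular matrix fibulin, with r = 0.923, Maob, a monoamine oxidase, with r = 0.922, Nmbr, the neuromedin B receptor, with r = 0.919, and then Snx31 and Camkv. Within groups the 5 of Slc17a8 had r between 0.804 and 0.91. None of these 15 genes was in more than 1 of the 3 sets.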

How the data were processed

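The authors mapped paired-end reads of 14 libraries to GRCm38.p4 (mm10) with STAR 2.5.3a, quantified transcripts with salmon and summarized them per gene with tximport. The values the authors deposited are TPM, 1 table per library. In 2 tables a decimal comma was read as a decimal point, and these values, of the unit recorded as other, are also TPM as deposited.

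Groups follow the sample titles. TPM were scaled by unweighted TMM factors over the 13471 tested genes, trimming 30% (log ratios) and 5% (mean levels) per side. limma 3.58.1 in R 4.3.3 fitted log2(scaled TPM + 0.5) by group, letting the variance follow the mean level, and p-values were adjusted over all tested genes. The authors tested counts, which were not used here. Ratios within a library were set against each other by exact permutation tests, two-sided, in R 4.3.3. The 95% intervals were computed with scipy 1.17.1 in Python 3.11.15. Coding sequences were aligned with MAFFT.

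The procedure was tested on simulated data. The depth per library is unknown from the deposited TPM. The members and gene lists were chosen with earlier results of these data known. Genes named are the members, Maged1, list genes called in a contrast (at most 3 for each list and contrast by smallest adjusted p, and the best known gene of a list where none was called) and, for each member, the 5 genes most correlated with it. Slc17a1 to Slc17a4 and Slc17a9, the called thalamic marker Lef1 and the markers given for single libraries were named after their values were seen. So were the second and later glutamate genes of a list and the list genes named while under the fold minimum. Alternatives were TPM as deposited, 2 other scalings, pseudocounts of 0.1 and 1, 2 other filters, the compared groups alone, no trend, a replicate block, the genotype tag, the 10 libraries with agreeing labels, calls without a fold change minimum, and leaving out each library in turn. The comparison with genotype not used was added after the data were seen. Values of 2 list genes are not reported here.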

Additional observations from a re-analysis of the deposited data

Results flagged for a closer look

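In 3 of the 15 groups of 4 libraries examined, 1 library stood far from the others of its group, by a gap to its nearest neighbour that took up most of the group's whole range, past Dixon's critical value at the 95% level. Chance gives this in about 1 in 20 such groups. All 3 were values of Slc17a7. Control saline replicate 2 was at 33.8 TPM, below the other 3 (share 0.868). Control cocaine replicate 1 was at 82.2 TPM, above the others (share 0.945), and cKO saline replicate 4 was at 73.4 TPM, above the others (share 0.991). The marker genes that were high in the latter libraries are given in the report, and their part in these values was not tested.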

How the results depend on the processing

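TPM keeps no depth, so the counting error of Slc17a8, near 1 TPM, is unknown. Against the values as reported, Slc17a8 for cocaine in control was no longer called with quantile normalization (log2 fold change -0.51), a pseudocount of 1 (-0.43), the compared groups alone (-0.61), the genotype tag (-0.13), the 10 libraries with agreeing labels (-0.45) or genotype not used (-0.11), and it ran from -0.75 to -0.54 with 1 library left out, losing the call without control saline replicate 2, 3 or 4 or control cocaine replicate 2 or 3. Slc17a7 for cocaine in cKO was called lower with TPM as deposited (-0.96, when the median of all genes also shifted by -0.35), and it ran from -0.93, called, without cKO cocaine replicate 1 to -0.21 without replicate 2. The Slc17a8 interaction ran from 0.99 to 1.32 with 1 library left out and was called without control saline replicate 1 (1.30). Leaving out a cKO cocaine library leaves 1, which is assumed to vary like the other groups.

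The small Slc17a6 values changed sign for cocaine in control by the tag (0.004) and in the 10 libraries (0.019), for cocaine in cKO with TPM as deposited (-0.30), quantile normalization (-0.01), the tag (-0.041) and genotype not used (-0.04), for cKO after saline by the tag (0.17), in the 10 libraries (0.092) and over a range of -0.19 to 0.00 with 1 library left out, and for the interaction by the tag (-0.045). With genotype not used the cKO response changed sign for Slc17a7 (0.053) and Slc17a8 (-0.11), and by the tag Slc17a8 did for cKO after saline (0.32), as did its ratio to Slc17a6 (0.41). The Slc17a7 to Slc17a6 ratio for cocaine in control was 0.41 by the tag (exact permutation p = 0.0857) and 0.57 in the 10 libraries (exact permutation p = 0.133, the smallest possible), and 0.46 to 0.71 with 1 library left out (exact permutation p = 0.0571, the smallest possible). The cause of these changes was not tested.

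The replicate numbers did not pair the libraries (mean correlation of deviations -0.01 over 18 pairs with the same number, 3 libraries closest to their own number). With a replicate block Slc17a8 for cocaine in control was at -0.61 (adjusted p = 0.0293) and Slc17a7 at 0.45 (adjusted p = 0.0713), and no call of a member changed. Slc17a8 has no value under the filter at a mean of 5 TPM. Genes called for cocaine in control, 192 higher and 223 lower as reported, ran from 53 to 1916 and from 86 to 2372 over the alternatives, and in cKO, 266 and 157, from 65 to 1378 and from 77 to 3082, with the lowest higher counts and the highest lower counts from TPM as deposited. Between genotypes the 7 calls after saline ran to 9 higher and 21 lower, the 5 after cocaine to 11 and 8, and the 108 of the interaction to 147 and 90, with at least 1 alternative at 0 for each.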
